A study of Mus musculus with 12 samples.

Results

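Transcripts of 10 transcription factor genes of the lung epithelium were followed across 12 arrays of cultured mouse type II alveolar epithelial cells, the cells of the alveolus that make surfactant. The genes were Nkx2-1, Foxa1, Foxa2, Cebpa, Gata6, Sox9, Klf5, Elf3, Nfe2l3 and Id2, named for their roles in lung epithelium. They were chosen with earlier results of these data known, including the change of Nfe2l3. Every probe set annotated to a member and to no other gene was used, which gave 20 probe sets for the 10 genes, of 34945 probe sets for 18193 genes on the array. No probe set was shared between a member and another gene. Of the members, 5 had 1 probe set each and 5 had 3 each.

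The samples fell into 4 genotypes with 3 arrays each: Gna12/Gna13 double knockout, Gna12 knockout, Gnaq/Gna11 double knockout and Gna11 knockout. The genes encode alpha subunits of heterotrimeric G proteins. Gnaq and Gna11 act mainly through phospholipase C and calcium, and Gna12 and Gna13 mainly through RhoA. Every culture thus lacked at least 1 of these subunits, each double knockout is set here against the single knockout it shares a deletion with, and no wild-type cells were analysed here. All cells were isolated from lungs and kept for 7 days on collagen in bronchial epithelial growth medium without hydrocortisone, with keratinocyte growth factor at 10 µg/ml and fresh medium every 3 days. The labels give neither age, sex and strain nor whether a deletion was in the whole animal or driven in chosen cells. Nor do they state that replicates were separate animals or cultures. A p-value here therefore covers only the variation among these arrays, part of which may be technical. Standard errors of differences pool the spread within genotypes over all 12 arrays.

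Nkx2-1 (also called thyroid transcription factor) is a homeodomain protein that defines lung identity and drives surfactant protein genes. It acts there with the forkhead factors Foxa1 and Foxa2, which open chromatin, with the leucine zipper factor Cebpa, and with the zinc finger factor Gata6. Sox9 and the helix-loop-helix inhibitor Id2 mark the progenitors at the tips of the branching lung and decline as alveolar cells mature. Klf5 and the Ets factor Elf3 belong to the barrier epithelium, and Nfe2l3 is a relative of the oxidative stress factor Nfe2l2.

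Values are log2 expression per probe set, and a gene is represented by its brightest probe set unless another is named. Means are given ± SD with n = 3 arrays. Differences are log2 differences ± the standard error of the limma model, and a difference was called at a Benjamini-Hochberg adjusted p under 0.05 over all 18193 genes. Intensities of different probe sets depend on their probes, so no member is ranked against another by level. Cultures were measured in bulk, so fewer cells of a type and less RNA per cell cannot be told apart. Against the median probe set of the array, 5.101, the brightest probe sets of 9 of the 10 members had means at or above it. Sox9 was the exception, with all of its 3 probe sets below.

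The cultures carried transcripts of their labelled cell type, and also those of other cell types. All of the 14 measured type II genes had means at or above the array median, as did 11 of 12 general epithelial genes, with Tjp1 below. So did 12 of 12 type I alveolar genes, 12 of 14 airway genes, 13 of 15 macrophage genes, 9 of 11 endothelial genes and 9 of 15 fibroblast genes. The median is a low mark, which 12031 of the 18193 genes, not counting Nfe2l3, reached by their brightest probe sets. These counts alone therefore do not show that a cell type was present. Sftpc, the surfactant protein C gene of type II cells, averaged 13.11 in Gna12/Gna13, 13.07 in Gna12, 13.26 in Gnaq/Gna11 and 13.37 in Gna11 cells. The mean of 20 pan-leukocyte genes, all above the array median, was 9.73 ± 0.45 in Gna12/Gna13, 10.03 ± 0.331 in Gna12, 9.55 ± 0.04 in Gnaq/Gna11 and 8.79 ± 0.332 in Gna11 cells. The Gapdh control probe sets, whose 3′ minus 5′ difference grows as RNA gets shorter, gave 3.15 ± 0.174 in Gna12/Gna13, 3.00 ± 0.298 in Gna12, 3.14 ± 0.124 in Gnaq/Gna11 and 3.70 ± 0.294 in Gna11 cells. The Actb controls did not set Gna11 cells apart. They gave 3.17 ± 0.166, 3.00 ± 0.142, 3.10 ± 0.319 and 3.23 ± 0.178 in the same order. Only the Gapdh difference was used as a covariate. The Y-linked gene Eif2s3y was low, 3.32 to 3.54, on all 3 Gnaq/Gna11 arrays, and in each other genotype on replicate 2 alone. It read 6.91 to 7.37 on the remaining arrays, so it is partly tied to genotype in Gnaq/Gna11 against Gna11 cells. Each targeted gene had a probe set with a lower mean in its knockout that passed an exact permutation test after adjustment: 1 of 7 for Gna13, 2 of 5 for Gna12, 1 of 7 for Gnaq and 1 of 2 for Gna11. The brightest probe set of each of these genes was not among them. That of Gna12 had means of 6.93 on the arrays lacking Gna12 and 6.64 on the others (exact p = 0.0195, adjusted p = 0.0682). That of Gna11 had 7.84 on the arrays lacking Gna11 and 7.72 on the others (adjusted p = 0.936). Those of Gnaq and Gna13 were lower in their knockouts by 0.236 and 0.171 (adjusted p = 0.164 and 0.167).

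**Figure D1:**
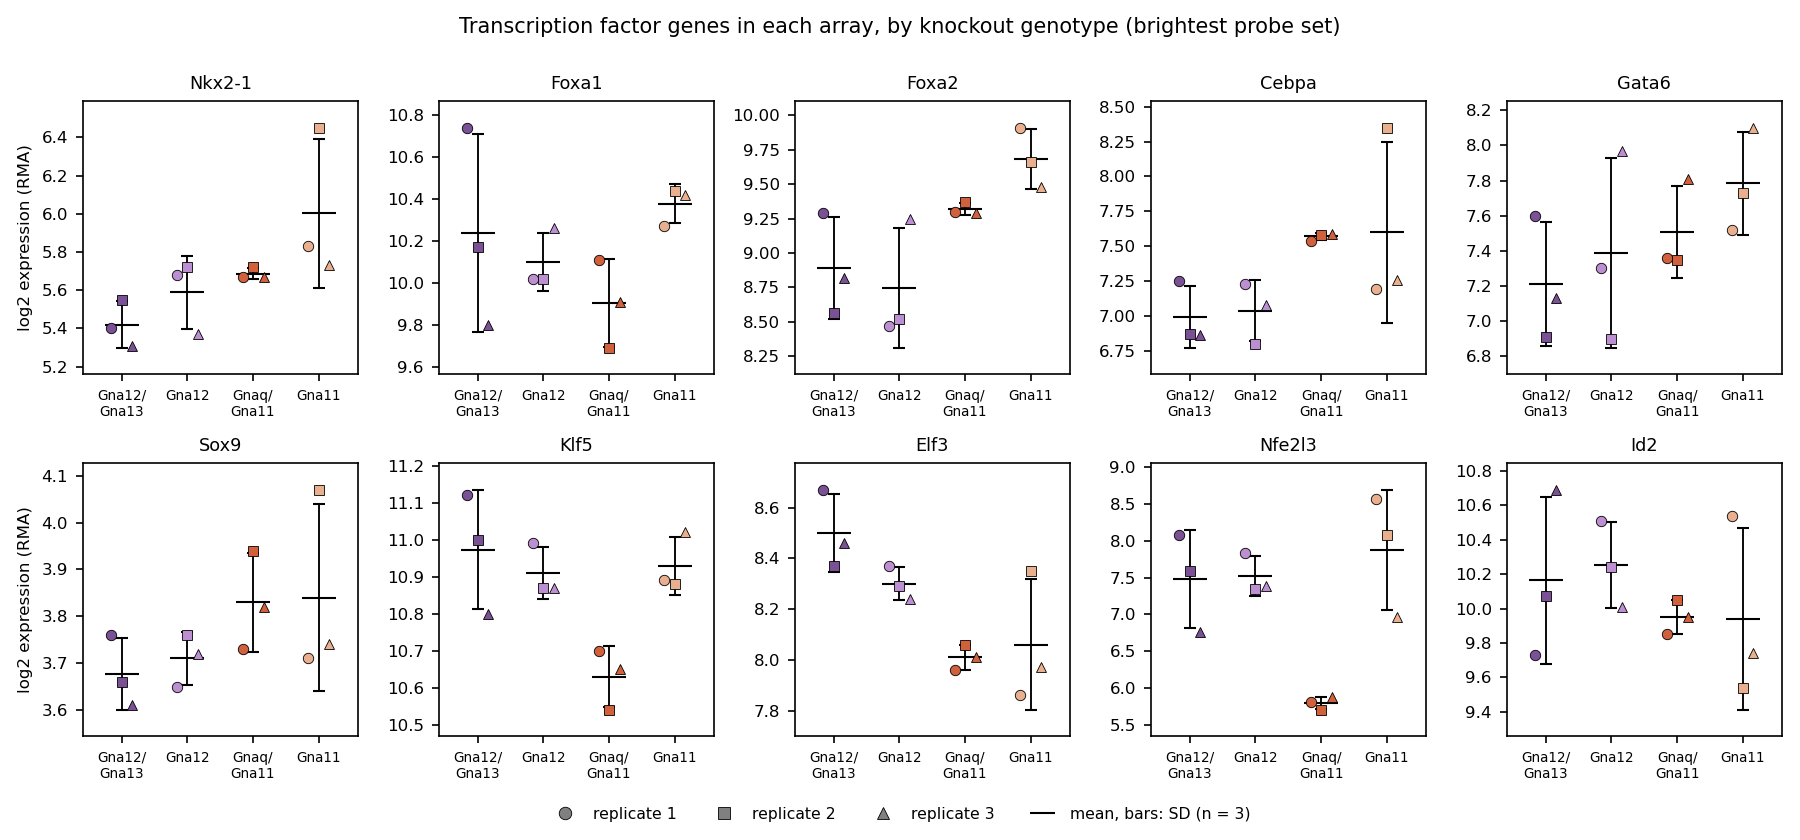
Log2 expression (vertical axes) of the brightest probe set of each of the 10 members on every array, by genotype (horizontal axes). Symbols mark the replicate, and lines with bars show the mean and SD of 3 arrays. Nfe2l3 and Klf5 were lower on all 3 Gnaq/Gna11 arrays than on any other array, and Foxa2 was highest on the Gna11 arrays.

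The member with a called change was Nfe2l3, a cap'n'collar leucine zipper factor that pairs with small Maf proteins on antioxidant response elements. Its brightest probe set, 1454240_at, read 5.81, 5.70 and 5.87 on the Gnaq/Gna11 arrays, against 8.57, 8.08 and 6.97 on the Gna11 arrays. On the other arrays it read 8.08, 7.59 and 6.76 in Gna12/Gna13 cells and 7.84, 7.35 and 7.38 in Gna12 cells. The 3 Gnaq/Gna11 arrays lay close together and below all the other 9 arrays, whereas the Gna11 arrays were widely spread. The mean was 5.791 ± 0.0875 in Gnaq/Gna11 cells and 7.874 ± 0.82 in Gna11 cells, a log2 difference of -2.08 ± 0.404 (95% interval -2.97 to -1.20), or 4.24-fold lower, with an adjusted p of 0.0303. Over all genes, 1.84% were called in this comparison, 0.676% as lower. A test for any difference among the 4 genotypes also called Nfe2l3 (adjusted p = 0.0300) and no other member, where 6.85% of all genes were called.

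The promoter of Nfe2l3 is shown because its transcript is the member's change that passed. The window spans 300 bases, with 250 before the annotated start and 50 after it, from RefSeq on GRCm38.p6, chr6:51432419-51432718 on the plus strand. Capitals mark matches to the motifs searched on both strands, other than the E-box.
Nfe2l3: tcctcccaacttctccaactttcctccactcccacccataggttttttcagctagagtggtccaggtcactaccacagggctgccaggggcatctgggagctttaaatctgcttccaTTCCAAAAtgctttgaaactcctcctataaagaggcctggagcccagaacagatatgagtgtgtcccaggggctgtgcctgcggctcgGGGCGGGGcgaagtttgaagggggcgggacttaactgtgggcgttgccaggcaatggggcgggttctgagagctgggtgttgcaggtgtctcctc
The match at bases 118 to 125 of the window is to TTNNGNAA, the C/EBP type, which 40.7% of 32851 promoters of the same length hold. The match at bases 206 to 213 is to GGGNGGGG, the Klf type, which 33.2% hold. The antioxidant element TGANNNNGC, in 41.3% of all promoters, was not among the letters of this window. The Klf type was found in 6 of the 7 members with a promoter in the table, and the E-box CANNTG, in 72.3% of all promoters, in all 7. The 7 members had 9 windows, 3 of them of Foxa2. A member counts if any of its windows matches, whereas the shares are of single windows, so the 2 are not alike. Such matches are descriptions of letters and not binding sites.

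The 3 probe sets of Nfe2l3 did not behave alike. Tested singly over 45037 probe sets, where 0.759% were called, 1454240_at had an adjusted p of 0.0433. Probe set 1453614_a_at read 4.75, 4.85 and 5.93 on the Gnaq/Gna11 arrays, against 6.68, 7.36 and 7.44 on the Gna11 arrays, a difference of -1.99 ± 0.355 with an adjusted p of 0.0319, which was 0.0604 with the replicate number as a block. It also separated the Gnaq/Gna11 arrays from all the others, with 7.96, 8.0 and 7.74 in Gna12/Gna13 cells and 7.65, 7.52 and 6.69 in Gna12 cells. The remaining probe set, 1417520_at, read between 3.55 and 3.86 on the Gnaq/Gna11 arrays and between 3.54 and 4.21 on the Gna11 arrays, below the array median throughout. Its difference was -0.20 ± 0.44 with an adjusted p of 0.883, and the highest of the 12 arrays was Gna12/Gna13 replicate 1, at 6.03. Per the platform annotation, 1417520_at rests on a RefSeq mRNA and the other 2 on cDNA records. The fall of Nfe2l3 was thus measured on 2 of its 3 probe sets.

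**Figure D2:**
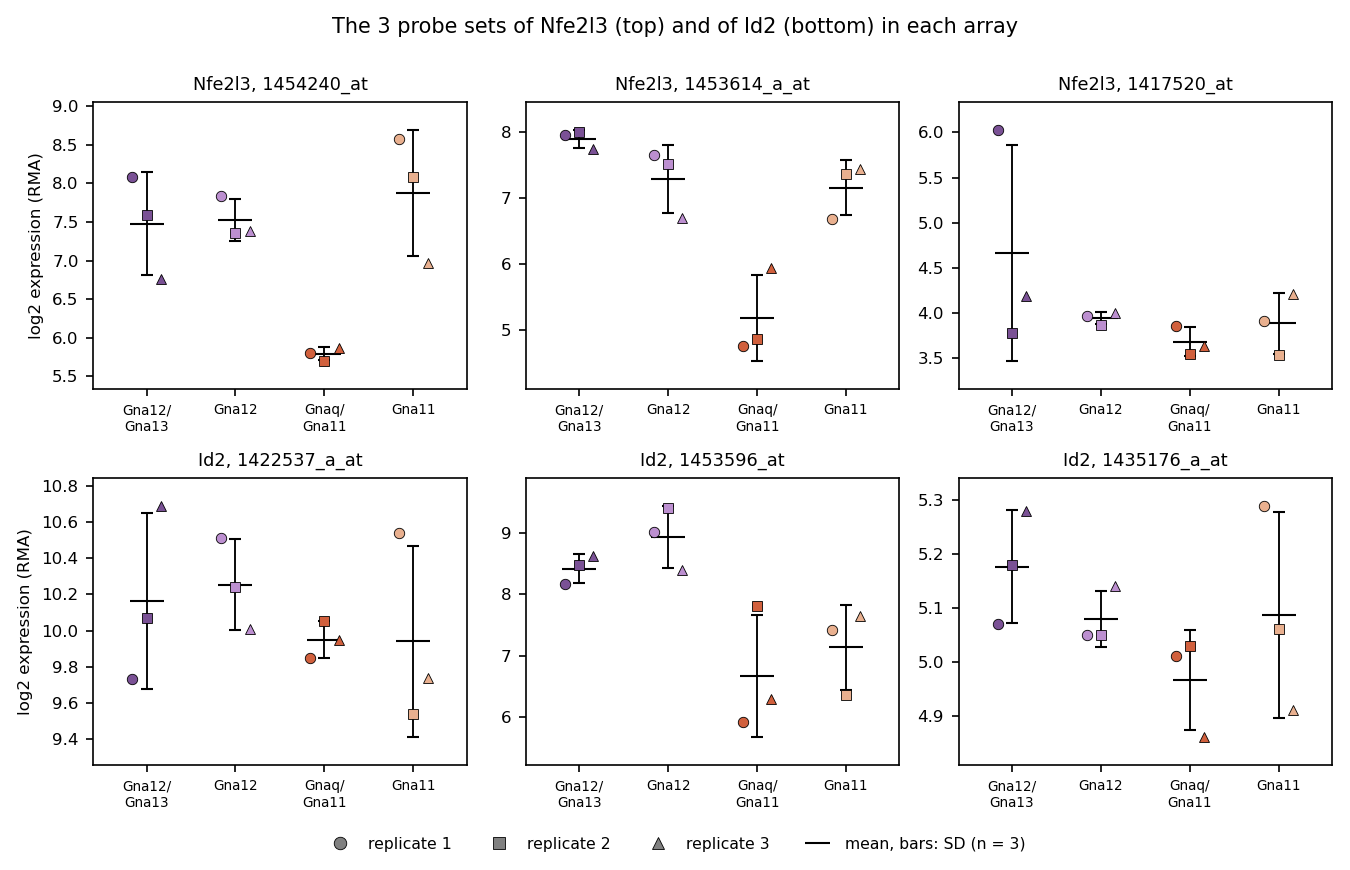
Log2 expression (vertical axes) of the 3 probe sets of Nfe2l3 (top) and the 3 of Id2 (bottom) on every array, by genotype (horizontal axes). Symbols mark the replicate, and lines with bars show the mean and SD of 3 arrays. Both 1454240_at and 1453614_a_at of Nfe2l3 were low on the Gnaq/Gna11 arrays, and 1453596_at of Id2 was higher on the 6 arrays lacking Gna12 than on the 6 lacking Gna11.

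The call for Nfe2l3 rested on all of the Gnaq/Gna11 arrays and on most of the Gna11 arrays. Its difference kept its sign in all 17 alternatives, from -2.54 to -1.32, and passed in 7 of them, with adjusted p-values from 0.0129 to 0.577. Without Gnaq/Gna11 replicate 1, 2 or 3 the adjusted p was 0.0675, 0.097 or 0.0844, and without Gna11 replicate 1 or 2 it was 0.0769 or 0.0842. Without Gna11 replicate 3, the lowest of its group, it was 0.0129. Probe set 1453614_a_at lost its call without Gnaq/Gna11 replicate 1 (-1.77, adjusted p = 0.0891) or 2 (-1.82, adjusted p = 0.109), and without Gna11 replicate 2 (-1.89, adjusted p = 0.0874) or 3 (-1.84, adjusted p = 0.0664). It passed without Gnaq/Gna11 replicate 3 (-2.36, adjusted p = 0.0259) and without Gna11 replicate 1 (-2.22, adjusted p = 0.0421). With Eif2s3y as a covariate, Nfe2l3 differed by -2.13 (adjusted p = 0.0602). With the Gapdh 3′ minus 5′ difference as a covariate it differed by -1.35 (adjusted p = 0.388), and with the pan-leukocyte mean as one by -1.32 (adjusted p = 0.577). For 1453614_a_at the last 2 values were -2.52 (adjusted p = 0.169) and -2.32 (adjusted p = 0.329). The leukocyte mean was 9.51 to 9.58 on the Gnaq/Gna11 and 8.48 to 9.14 on the Gna11 arrays. The Gapdh difference was 3.01 to 3.26 and 3.46 to 4.03. Fits with these 2 covariates thus cannot tell them apart from genotype. The part of the covariates in the result beyond these fits was not tested.

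**Figure D3:**
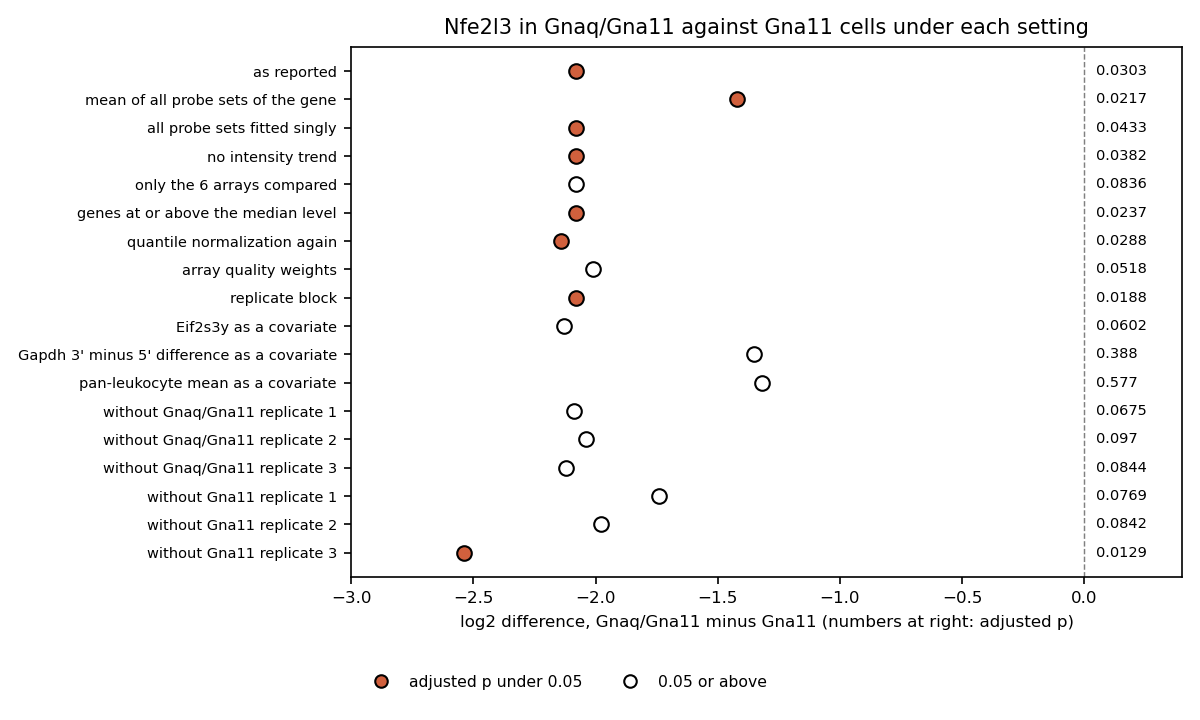
Log2 difference of Nfe2l3, Gnaq/Gna11 minus Gna11 (horizontal axis), as reported and under 17 alternatives (vertical axis), with the adjusted p at the right. Filled points have an adjusted p under 0.05. All differences lie between -2.54 and -1.32, and 7 of the 17 alternatives pass.

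In the other line, where the double knockout lacks Gna13 as well as Gna12, the groups overlapped. Nfe2l3 averaged 7.474 ± 0.666 in Gna12/Gna13 cells and 7.524 ± 0.277 in Gna12 cells, a difference of -0.05 ± 0.404 (95% interval -0.94 to 0.84, adjusted p = 1). The test of the difference itself, the Gnaq/Gna11 minus Gna11 value less the Gna12/Gna13 minus Gna12 value, gave -2.03 ± 0.571 with an adjusted p of 0.199. No member was called in that test, which called 0.0715% of all genes. A fall of Nfe2l3 particular to the loss of Gnaq was therefore not shown by this test, although its unadjusted p was 0.00433.

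The genes whose 12-array pattern was most like that of Nfe2l3, by Pearson correlation among the 12031 genes at or above the array median, were Cacna2d1 (r = 0.94), Adamts5 (r = 0.93) and Cep70 (r = 0.93). Within genotypes, after group means were removed, the same correlations were 0.81, 0.82 and 0.88. Cacna2d1, a calcium channel subunit, differed by -1.28 ± 0.284 in Gnaq/Gna11 against Gna11 cells (adjusted p = 0.0484). Adamts5, a protease of the matrix, differed by -0.90 ± 0.239 (adjusted p = 0.0917), and Cep70, a centrosomal protein, by -1.39 ± 0.256 (adjusted p = 0.0251). These genes share the 12 arrays and their RNA with Nfe2l3, and were chosen for the likeness.

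The partners and relatives of Nfe2l3 were measured beside it. Nfe2l2, the main activator of antioxidant genes, differed by -0.09 ± 0.215 in Gnaq/Gna11 against Gna11 cells (adjusted p = 0.884), and Nfe2l1, its relative in the control of proteasome genes, by 0.10 ± 0.175 (adjusted p = 0.837). Of 11 measured genes with antioxidant elements, 3 fell in Gnaq/Gna11 cells, 0 rose, and 8 did not pass. These were the glutathione peroxidase gene Gpx2 (-0.95 ± 0.191, adjusted p = 0.0356) and the glutathione transferase genes Gsta4 (-0.66 ± 0.132, adjusted p = 0.0346) and Gstm1 (-0.66 ± 0.129, adjusted p = 0.0322). The median of the 11 was -0.13, against -0.03 over all genes. The list was chosen with the change of some antioxidant genes known. Between the single knockouts, where Nfe2l3 differed by -0.35 ± 0.404 (adjusted p = 0.651), 2 of the 11 rose. These were the cystine transporter gene Slc7a11 (3.55 ± 0.643, adjusted p = 0.0206) and Gclm, a subunit of the enzyme that starts glutathione synthesis (0.84 ± 0.195, adjusted p = 0.0469). The small Maf gene Mafg, a pairing partner, also rose there, by 0.93 ± 0.159 (adjusted p = 0.0174).

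Foxa1 and Foxa2, the forkhead pair, were lower in Gnaq/Gna11 cells without reaching the threshold. Foxa1 read 10.11, 9.69 and 9.91 on the Gnaq/Gna11 arrays, against 10.27, 10.44 and 10.42 on the Gna11 arrays, so that the groups did not overlap. The difference was -0.47 ± 0.208 (95% interval -0.93 to -0.02), with an adjusted p of 0.293. It was -0.03 when the pan-leukocyte mean, which was separate between these groups, entered the fit (adjusted p = 0.990). In the cells lacking Gna12 it was spread, with 10.74, 10.17 and 9.80 in Gna12/Gna13 cells and 10.02, 10.02 and 10.26 in Gna12 cells, a difference of 0.13 ± 0.208 (adjusted p = 1). The difference between these differences, -0.61 ± 0.295, had an adjusted p of 0.501.

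Foxa2 read 9.30, 9.37 and 9.29 on the Gnaq/Gna11 arrays, against 9.91, 9.66 and 9.48 on the Gna11 arrays, again without overlap (-0.36 ± 0.244, adjusted p = 0.512). Its widest difference was between the single knockouts. Foxa2 read 8.47, 8.52 and 9.25 in Gna12 cells and 9.91, 9.66 and 9.48 in Gna11 cells, with the third Gna12 array the highest of its group. The means were 8.747 ± 0.44 in Gna12 cells and 9.680 ± 0.217 in Gna11 cells, a difference of -0.93 ± 0.244 (95% interval -1.47 to -0.40), or 1.91-fold lower. Its adjusted p was 0.0644, above the threshold, and it was 0.0300 without Gna12 replicate 3 (-1.19) and 0.0476 when genes below the array median were left out. No member was called between the single knockouts, where 2.82% of all genes were. The Gna12/Gna13 arrays, at 9.29, 8.56 and 8.82, overlapped those of Gna12 (0.14 ± 0.244, adjusted p = 1).

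Foxa2 was the member that ran most closely against the leukocyte genes. Over the 12 arrays its correlation with the pan-leukocyte mean was -0.91, and -0.82 after group means were removed, where that of Foxa1 was -0.58 and -0.69 and that of Klf5 -0.07 and -0.17. These arrays share their RNA, and each correlation is given as a description. When the pan-leukocyte mean entered the fit, the Foxa2 difference between Gna12 and Gna11 cells was 0.04 (adjusted p = 0.998), and with the Gapdh difference in its place -0.22 (adjusted p = 0.865). Neither covariate overlapped between these groups. The leukocyte mean was 9.65 to 10.22 in Gna12 and 8.48 to 9.14 in Gna11 cells. The Gapdh difference was 2.67 to 3.25 and 3.46 to 4.03. These fits therefore cannot tell the covariate apart from genotype. In the comparison of Gna12 with Gna11 cells 8 of the 20 pan-leukocyte genes rose and 0 fell (median 1.33, against -0.06 over all genes), among them the integrin gene Itgb2 (1.88 ± 0.309, adjusted p = 0.0142).

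**Figure D4:**
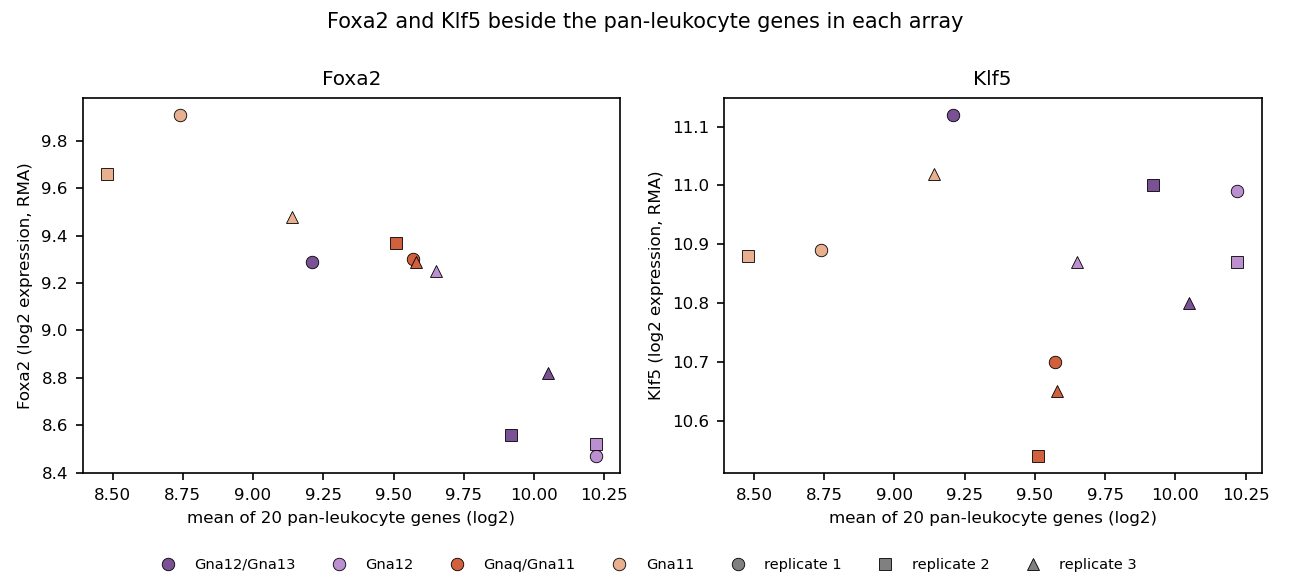
Log2 expression of Foxa2 (left) and Klf5 (right) on each array (vertical axes) against the mean of 20 pan-leukocyte genes (horizontal axes, log2). Colours mark the genotype and symbols the replicate. Foxa2 was lower where the leukocyte genes were higher (r = -0.91), and Klf5 was low on the 3 Gnaq/Gna11 arrays (r = -0.07).

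Nkx2-1, represented by 1 probe set, read 5.67, 5.72 and 5.67 on the Gnaq/Gna11 arrays, against 5.83, 6.45 and 5.73 on the Gna11 arrays. It read 5.40, 5.55 and 5.31 in Gna12/Gna13 cells and 5.68, 5.72 and 5.37 in Gna12 cells. The Gna11 arrays lay above those of every other genotype, by little except for replicate 2. The differences were -0.32 ± 0.191 for Gnaq/Gna11 against Gna11 (adjusted p = 0.459), -0.17 ± 0.191 for Gna12/Gna13 against Gna12 (adjusted p = 1) and -0.41 ± 0.191 for Gna12 against Gna11 (adjusted p = 0.244). Without Gna11 replicate 2, the first was -0.09 (adjusted p = 0.858) and the last -0.19 (adjusted p = 0.551). After group means were removed, Nkx2-1 ran against the mean of 12 type I alveolar genes (r = -0.92), with Gna11 replicate 2 highest for Nkx2-1 and, at 8.84, lowest of its group for the type I genes. Replicate 2 was also lowest of its group for the type I genes in Gna12/Gna13 (9.14) and Gna12 cells (9.07). Outside the Gnaq/Gna11 group, whose 3 arrays were all low for Eif2s3y, these 3 arrays are those low for it. Nkx2-1 also ran against Eif2s3y within genotypes (r = -0.77). Nkx2-1, Foxa1 and Foxa2 were the members whose arrays were separate and lower both in Gnaq/Gna11 and in Gna12 cells against Gna11 cells. For Nkx2-1 the nearest arrays read 5.73 and 5.72 in both cases, and its mean over all arrays, 5.674, was little above the array median of 5.101. Both comparisons use the same 3 Gna11 arrays.

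The promoters of these 3 genes are shown as those of the members with that pattern, and because the products of all 3 bind motifs that were searched. Each is a RefSeq window of 300 bases on GRCm38.p6, minus strand, with matches in capitals as for Nfe2l3: Nkx2-1 at chr12:56536859-56537158, Foxa1 at chr12:57546062-57546361 and the window of Foxa2 with most matches, of 3 in the table, at chr2:148045415-148045714.
Nkx2-1: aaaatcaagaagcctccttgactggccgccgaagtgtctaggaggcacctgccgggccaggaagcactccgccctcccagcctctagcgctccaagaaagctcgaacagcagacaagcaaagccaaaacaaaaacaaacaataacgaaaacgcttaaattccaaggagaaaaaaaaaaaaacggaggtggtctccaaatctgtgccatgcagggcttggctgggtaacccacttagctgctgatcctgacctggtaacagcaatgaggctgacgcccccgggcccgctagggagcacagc
Foxa1: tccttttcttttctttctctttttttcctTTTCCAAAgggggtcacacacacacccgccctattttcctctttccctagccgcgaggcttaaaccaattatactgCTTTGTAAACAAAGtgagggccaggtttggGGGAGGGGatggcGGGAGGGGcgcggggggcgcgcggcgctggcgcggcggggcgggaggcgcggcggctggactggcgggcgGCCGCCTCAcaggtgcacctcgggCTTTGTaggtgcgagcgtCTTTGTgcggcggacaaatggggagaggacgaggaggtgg
Foxa2: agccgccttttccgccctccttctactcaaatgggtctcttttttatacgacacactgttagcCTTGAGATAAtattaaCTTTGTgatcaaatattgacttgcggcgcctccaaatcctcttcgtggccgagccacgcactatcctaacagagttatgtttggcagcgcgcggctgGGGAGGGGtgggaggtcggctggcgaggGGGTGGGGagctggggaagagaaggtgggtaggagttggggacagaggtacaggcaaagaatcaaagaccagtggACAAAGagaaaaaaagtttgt
The Foxa1 window holds the forkhead motif TGTTTAC on the opposite strand at bases 110 to 116, where it overlaps the Sox motif ACAAAG at bases 106 to 111 and at bases 114 to 119. That forkhead motif is in 3.65% of all promoters and ACAAAG in 18.7%. No other member's windows held TGTTTAC, and TGTTTGC (5.07% of all promoters) was in none of the 7. The Foxa2 window holds the NKX2-1 motif CTCAAG (15.9% of all promoters) on the opposite strand at bases 64 to 69, overlapping the GATA motif AGATAA (11.2%) at bases 68 to 73. The NKX2-1 motif CACTTG (13.6%) was in the Elf3 window, at bases 88 to 93, and the Ets motif CCGGAAG (8.86%) in none of the 7. The Nkx2-1 window holds no match other than an E-box.

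Cebpa and Gata6, partners of Nkx2-1 in the late maturation of the alveolar epithelium, passed in none of the comparisons tested. Cebpa read 7.54, 7.58 and 7.59 on the Gnaq/Gna11 arrays and 7.19, 8.35 and 7.26 on the Gna11 arrays, of which replicate 2 was the highest. The difference was -0.03 ± 0.287 (95% interval -0.66 to 0.60, adjusted p = 0.970), and 0.34 without Gna11 replicate 2. It averaged 6.995 ± 0.224 in Gna12/Gna13 and 7.037 ± 0.215 in Gna12 cells. The 3 Gnaq/Gna11 arrays lay above all 6 arrays lacking Gna12, a pairing of groups that was not tested. The Gna12 difference from Gna11 cells was -0.57 ± 0.287 (adjusted p = 0.289). Gata6 had 3 probe sets. The brightest, 1425463_at, read 7.36, 7.35 and 7.81 in Gnaq/Gna11 cells and 7.52, 7.73 and 8.10 in Gna11 cells (-0.27 ± 0.297, adjusted p = 0.708). It read 7.60, 6.91 and 7.13 in Gna12/Gna13 cells and 7.30, 6.90 and 7.97 in Gna12 cells (-0.17 ± 0.297, adjusted p = 1). Within genotypes it ran with the mean of the epithelial identity genes (r = 0.82), and its probe set 1443081_at stayed between 3.91 and 4.06, below the array median.

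Klf5, a zinc finger factor of proliferating and barrier epithelium, had the smallest pooled standard error of the members, with Sox9 close to it (0.105). It read 10.70, 10.54 and 10.65 on the Gnaq/Gna11 arrays, against 10.89, 10.88 and 11.02 on the Gna11 arrays, and between 10.80 and 11.12 on the 6 arrays lacking Gna12. The Gnaq/Gna11 arrays were thus below all the others. The difference was -0.30 ± 0.10 (95% interval -0.52 to -0.08), or 1.23-fold lower, with an unadjusted p of 0.0121 and an adjusted p of 0.171. It stayed between -0.33 and -0.25 when single arrays were left out and was -0.26 when the pan-leukocyte mean entered the fit (adjusted p = 0.778). The other probe sets gave -0.19 ± 0.252 (1451739_at) and 0.15 ± 0.262 (1430255_at), so the mean over the 3 was -0.11 (adjusted p = 0.814). In Gna12/Gna13 against Gna12 cells Klf5 differed by 0.06 ± 0.10 (adjusted p = 1), and the difference between the 2 differences was -0.36 ± 0.142 (adjusted p = 0.363).

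Elf3, an epithelial Ets factor of differentiating and inflamed airways, read 7.96, 8.06 and 8.01 in Gnaq/Gna11 cells and 7.86, 8.35 and 7.97 in Gna11 cells (-0.05 ± 0.176, adjusted p = 0.920). It read 8.67, 8.37 and 8.46 in Gna12/Gna13 cells and 8.37, 8.29 and 8.24 in Gna12 cells (0.20 ± 0.176, adjusted p = 1). These 2 groups met at 8.37 to 2 decimals but did not overlap at full precision. Of all genes, 11.3% did not overlap in that comparison, 6.4% with Gna12/Gna13 higher. No member was called there, nor was any gene by limma (0%), while 820 genes had an unadjusted p under 0.05 (4.51%), none of them a member. The groups lacking Gna12 averaged 8.498 ± 0.153 and 8.299 ± 0.0635, and those lacking Gna11 8.009 ± 0.0471 and 8.060 ± 0.261.

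Of the progenitor factors, Sox9 was at the low end of the array and Id2 well above its median. All 3 Sox9 probe sets read between 2.70 and 4.07 on all 12 arrays. The brightest averaged 3.678 ± 0.0718 in Gna12/Gna13, 3.709 ± 0.0552 in Gna12, 3.830 ± 0.11 in Gnaq/Gna11 and 3.836 ± 0.2 in Gna11 cells, and the Gnaq/Gna11 difference was -0.01 ± 0.105 (adjusted p = 0.987; 0.04 after another quantile normalization). Of 10 measured Sox9 targets, mostly cartilage matrix genes, 5 were also below the array median and none passed in any comparison.

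Id2 gave unlike results by probe set, as the plot of its probe sets shows. The brightest, 1422537_a_at, read 9.85, 10.05 and 9.95 in Gnaq/Gna11 cells and 10.54, 9.54 and 9.74 in Gna11 cells (0.01 ± 0.281, adjusted p = 0.993; -0.03 after another quantile normalization). Probe set 1453596_at read 8.16, 8.47 and 8.62 in Gna12/Gna13 cells and 9.01, 9.40 and 8.40 in Gna12 cells. On the arrays lacking Gna11 it read 5.91, 7.80 and 6.30 in Gnaq/Gna11 cells and 7.41, 6.35 and 7.65 in Gna11 cells. All 6 arrays lacking Gna12 were above all 6 lacking Gna11 on this probe set. Such a separation of 6 arrays from 6 was found for 4.54% of all probe sets, and one of the 3 Gna12 from the 3 Gna11 arrays for 23.4%. The difference of Gna12 from Gna11 cells was 1.80 ± 0.482 with an adjusted p of 0.0916 over single probe sets, of which 1.30% were called. It was 0.31 ± 0.279 on the brightest probe set and -0.01 ± 0.13 on 1435176_a_at. Over 10 alternatives the value for 1453596_at ran from 0.56 to 2.07, and none passed.

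**Figure D5:**
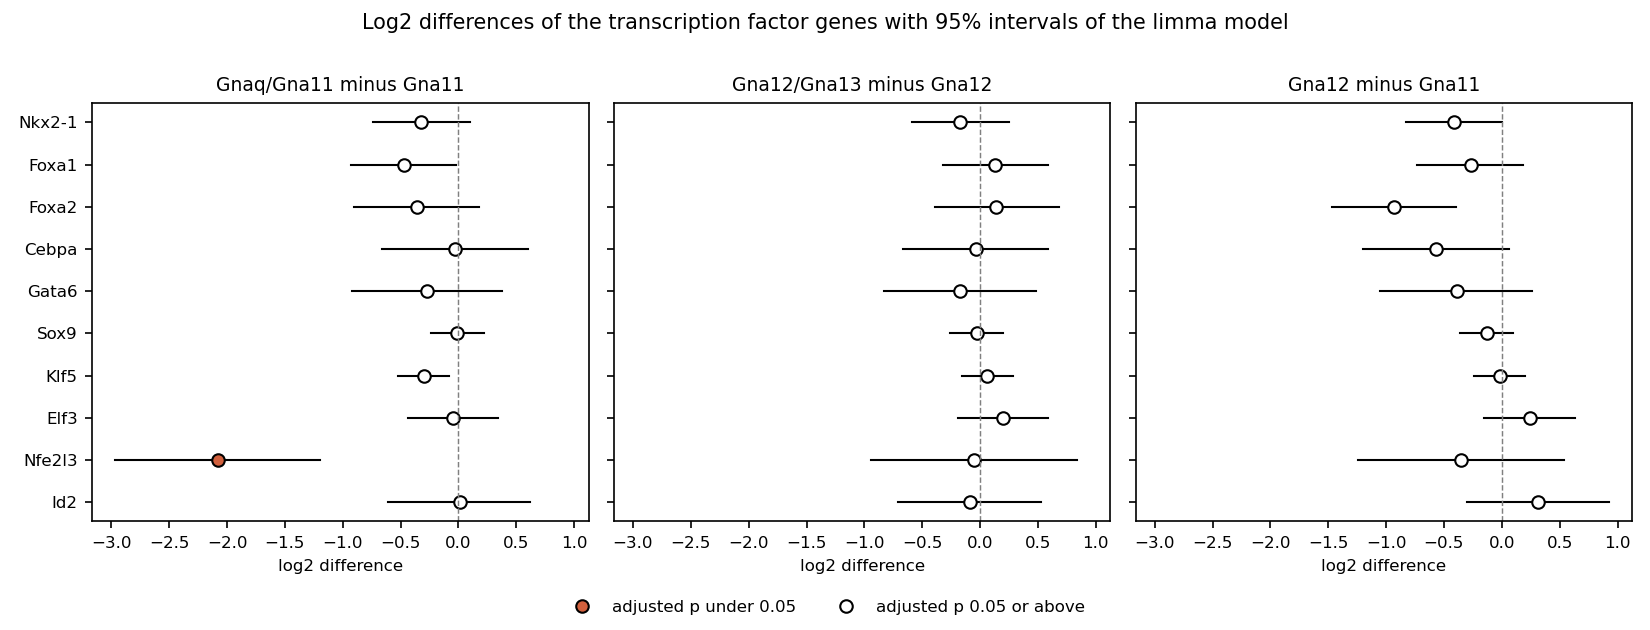
Log2 differences (horizontal axes) of the 10 members (vertical axis) in 3 comparisons, with 95% intervals of the limma model. Filled points have an adjusted p under 0.05. Nfe2l3 at -2.08 is the filled point, and 9 of the 10 points lie below 0 in Gnaq/Gna11 minus Gna11. Of all 18193 genes, 8257 were positive in that comparison.

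Across the members, 9 of 10 differences were negative in Gnaq/Gna11 against Gna11 cells, with a median of -0.29 against -0.03 over all genes. Of all 18193 genes, 8257 were positive there. Among the 9, Sox9 (-0.01), Cebpa (-0.03) and Elf3 (-0.05) differed by little. The arrays did not overlap for 5 of the 10 members, all lower (Nkx2-1, Foxa1, Foxa2, Klf5 and Nfe2l3), where 19.7% of all genes did not overlap and 9.83% were lower. An unadjusted p under 0.05 was found for 3 (Foxa1, Klf5 and Nfe2l3), against 16.2% of all genes. In Gna12 against Gna11 cells 8 of 10 were negative (median -0.31 against -0.06), where 7422 of all 18193 genes were positive. There 3 members were separate and lower, while 26.3% of all genes did not overlap and 15.9% were lower. In Gna12/Gna13 against Gna12 cells 6 of 10 were negative (median -0.04 against -0.00), where 9080 of all 18193 genes were positive. When the pan-leukocyte mean entered the fit, the sign of Foxa2, Cebpa, Gata6, Sox9, Elf3 and Id2 turned in Gnaq/Gna11 against Gna11 cells. That mean did not overlap between these groups, so the fit cannot tell it apart from genotype. On the brightest probe sets the order of the 4 genotypes was the same for Nkx2-1, Cebpa, Gata6 and Sox9. It was highest in Gna11, then Gnaq/Gna11, Gna12 and Gna12/Gna13. Neither Gnaq/Gna11 against Gna11 nor Gna12/Gna13 against Gna12 passed for them, and Gnaq/Gna11 against Gna12 was not tested. On Gata6 probe set 1425464_at, Gna12/Gna13 (6.798) was above Gna12 (6.62), and Sox9 lay below the array median. Among the 45 pairs of members, 29 correlations within genotypes were positive, with a median of 0.16.

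Genes that act with the members were mostly below the threshold. None of 45 other epithelial transcription factors passed in Gnaq/Gna11 against Gna11 cells (median -0.08), where Zeb2 (1.04 ± 0.502, adjusted p = 0.338) and Sox11 (-0.82 ± 0.695, adjusted p = 0.613) differed most. Relative to Gna11 cells, in Gna12 cells Zeb2, a repressor of epithelial genes that leukocytes also express, rose by 3.12 ± 0.502 (adjusted p = 0.0134), and Irx1, a homeobox gene of the distal lung, fell by 1.02 on the log2 scale (adjusted p = 0.0327). Of 34 family relatives, Id4, a brain-enriched relative of Id2, fell by 0.85 in Gnaq/Gna11 cells (adjusted p = 0.0488). The Klf relatives Klf10 (1.76 ± 0.252, adjusted p = 0.00789) and Klf7 (0.89 ± 0.196, adjusted p = 0.0400) rose in Gna12 against Gna11 cells. None of 18 protein partners passed in Gnaq/Gna11 cells (median -0.13), where the helix-loop-helix partners of Id proteins Tcf4 (-0.57 ± 0.208, adjusted p = 0.200) and Tcf12 (-0.57 ± 0.224, adjusted p = 0.230) differed most. None of 14 epithelial genes linked to Klf5 and Elf3, nor of 16 BMP and TGF-beta genes that regulate Id genes, passed in any comparison.

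Surfactant and other marker genes of type II cells were mostly below the threshold. Of 14 type II genes in Gnaq/Gna11 against Gna11 cells, 1 rose and 0 fell (median 0.23). This was Chil1, a chitinase-like secreted protein (0.59 ± 0.123, adjusted p = 0.0393). Sftpb, a surfactant protein gene under Nkx2-1 and Foxa2, averaged 12.32 in Gnaq/Gna11 and 12.01 in Gna11 cells (adjusted p = 0.0815), and Sftpc differed by -0.10 (adjusted p = 0.719). Of the same list in Gna12 against Gna11 cells, the phosphate transporter gene Slc34a2 fell by 0.85 (adjusted p = 0.0480), and Abca3, the lipid pump of lamellar bodies, differed by -0.62 ± 0.154 (adjusted p = 0.0543). None of 11 lipogenic, 12 type I, 14 airway or 12 epithelial identity genes passed in any comparison. In Gnaq/Gna11 against Gna11 cells their medians were 0.14, -0.20, -0.09 and -0.08. In the same comparison 1 of 20 pan-leukocyte genes rose (Itgb2, 1.51 ± 0.309, adjusted p = 0.0375), as did 4 of 15 macrophage genes (C1qc, Adgre1, C1qb and Cd68) and 2 of 15 fibroblast genes (Col3a1 and Col1a1), with none of 11 endothelial genes passing. No gene of any of these lists passed in Gna12/Gna13 against Gna12 cells.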

How the data were processed

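RNA of 12 samples was measured on Affymetrix mouse genome arrays after amplification of 10 ng of total RNA, per the labels. The authors deposited 1 value per probe set and array, computed by RMA (background correction, normalization between arrays, summary of probes) according to the submitters' processing notes, and these are read here as log2 values. For the log base, the software and its version, the sources used here say nothing. Values ran from 2.127 to 14.062, with array medians from 5.032 to 5.110. Correlations between arrays were 0.963 to 0.987 within and 0.954 to 0.986 between genotypes, and no arrays were identical. Precision is limited by the number of arrays.

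Of 45101 probe sets, 64 were controls, and the platform annotation gave 1 gene for 34945, several for 932 and none for 9160. The RefSeq gene table of GRCm38.p6 supplied current symbols for 34741, and 204 kept the platform's. The probe set with the highest mean stood for a gene.

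A mean per genotype was fitted to all 12 arrays in limma 3.58.1 (R 4.3.3, lmFit and eBayes, trend on; residual degrees of freedom 8, prior 3.19), after a check on simulated data. Tests were two-sided, with Benjamini-Hochberg adjustment over 18193 genes or 45037 probe sets. Targeted genes were tested by exact permutation of arrays. An exact test of 3 arrays against 3 can go no lower than p = 0.1. In the labels, a position code ends in 2 for cells lacking Gna11 and in 4 for cells lacking Gna12, and its letters differ between single and double knockouts, so that it and genotype cannot be told apart.

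The members, lists, tests and alternatives were chosen with earlier results of these data known, including the change of Nfe2l3 and of some antioxidant genes. Named from each list are its called genes, up to 4 with the largest differences, or up to 2 uncalled ones with the largest differences. Exceptions named after their values were seen are Sftpb, Sftpc, Abca3, Nfe2l1, Nfe2l2 and Tjp1. Correlations with gene lists carry no test. Lamp3 and the few other list genes without a probe set of their own were not used here. Promoters came from a RefSeq table with entries for 7 members, and Gata6, Klf5 and Sox9 were not matched. Deviations of same-numbered arrays correlated from -0.04 to 0.30. Among Gna12/Gna13, Gna12 and Gna11 arrays they were 0.15 to 0.30 for replicates 2 and 3 and near 0 for replicate 1, and near 0 for every pair with Gnaq/Gna11. No 2 groups had all pairs over 0.1, so the numbers were not taken as pairs.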

Additional observations from a re-analysis of the deposited data

Results flagged for a closer look

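Probe set 1453614_a_at of Nfe2l3 was singled out because its arrays moved in opposite directions without overlap in the 2 lines. It was lower on all 3 Gnaq/Gna11 arrays than on all 3 Gna11 arrays (-1.99 ± 0.355), and higher on all 3 Gna12/Gna13 arrays, at 7.74 to 8.0, than on all 3 Gna12 arrays, at 6.69 to 7.65 (0.61 ± 0.355, adjusted p = 1). The difference between these differences was -2.60 ± 0.502, with an adjusted p of 0.146 in the limma model over 45037 probe sets. Over 16 alternatives it ran from -3.28 to -2.30, with adjusted p-values from 0.0986 to 0.716. Of all probe sets, 17.3% did not overlap in the first comparison and 10.8% in the second. The brightest probe set, 1454240_at, gave -0.05 ± 0.404 in Gna12/Gna13 against Gna12 cells, with overlapping arrays.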

How the results depend on the processing

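The 10 members in 4 comparisons gave 726 alternative values, of which 629 kept their direction and their side of the threshold, 10 lost a call, 2 gained one and 85 had the opposite sign. None of these 85 values was called, and none belonged to a difference called as reported. Foxa2 in Gna12 against Gna11 cells, called in 2 alternatives, was 0.04 with the pan-leukocyte mean. The causes were not tested. The call of Nfe2l3 was lost with the 6 arrays alone (adjusted p = 0.0836), with array weights (0.0518), with each covariate and without 5 of the 6 arrays, as given above. The number of members called in Gnaq/Gna11 against Gna11 cells was then 0, and that of genes 139, 174, 3 (Gapdh) and 13 (pan-leukocyte), against 335 as reported. The Gapdh difference and the pan-leukocyte mean were separate between these groups, as given above. Counted by the brightest probe set when all probe sets were fitted singly, the number of genes was 199. Leaving out single arrays gave 0 to 1 members and 102 to 375 genes. In Gna12/Gna13 against Gna12 cells it gave 0 to 3 genes. For the difference between the differences, 13 genes became 35 with the mean of probe sets, 5 with single probe sets, 22 without the trend, 37 above the array median, 28 with array weights, 0 with the Gapdh difference, 1 with the pan-leukocyte mean, and 0 to 40 without single arrays. Between the single knockouts, 513 genes became 328 with single probe sets, 22 with the 6 arrays alone, 0 with the Gapdh difference, 0 with the pan-leukocyte mean, and 62 to 736 without single arrays, with 1 member called above the array median and 0 to 1 without single arrays. For any difference among the 4 genotypes, 1246 genes became 534 with the Gapdh difference, 370 with the pan-leukocyte mean and 617 to 1308 without single arrays, with 0 members called with Eif2s3y and 0 to 2 without single arrays. With the replicate block, Nfe2l3 differed by -2.08 with an adjusted p of 0.0188, and probe set 1453614_a_at by -1.99 with one of 0.0604, which ends its call, while no gene-level call of a member changed.

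Signs turned as follows. In Gnaq/Gna11 against Gna11 cells, the mean of probe sets gave -0.19 for Id2, another quantile normalization 0.04 for Sox9 and -0.03 for Id2, array weights 0.10 for Cebpa, 0.03 for Sox9 and -0.05 for Id2, and Eif2s3y 0.01 for Gata6. There the Gapdh difference gave 0.21 for Foxa2, 0.04 for Cebpa and 0.07 for Gata6, and the pan-leukocyte mean 0.24 for Foxa2, 0.47 for Cebpa, 0.14 for Gata6, 0.15 for Sox9, 0.14 for Elf3 and -0.47 for Id2. In Gna12/Gna13 against Gna12 cells, the mean of probe sets gave 0.03 for Gata6 and 0.43 for Nfe2l3, the Gapdh difference -0.01 for Foxa2, and the pan-leukocyte mean -0.04 for Foxa1, -0.10 for Foxa2 and 0.10 for Id2. For the difference between the differences, the mean of probe sets gave -0.02 for Id2, quantile normalization -0.02 for Cebpa, and Eif2s3y -0.10 for Cebpa, 0.19 for Gata6 and -0.05 for Sox9. There the Gapdh difference gave 0.22 for Foxa2 and 0.34 for Gata6, and the pan-leukocyte mean 0.02 for Foxa1, 0.34 for Foxa2, 0.48 for Gata6, 0.01 for Elf3 and -0.57 for Id2. In Gna12 against Gna11 cells, the mean of probe sets gave 0.01 for Klf5, the Gapdh difference 0.04 for Gata6 and 0.57 for Nfe2l3, and the pan-leukocyte mean 0.45 for Foxa1, 0.04 for Foxa2, 0.24 for Cebpa, 0.28 for Gata6, 0.13 for Sox9, 0.05 for Klf5, 0.90 for Nfe2l3 and -0.46 for Id2.

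Values that changed sign when single arrays were left out had these ranges. In Gnaq/Gna11 against Gna11 cells they were -0.24 to 0.34 for Cebpa, -0.07 to 0.11 for Sox9, -0.15 to 0.10 for Elf3 and -0.19 to 0.31 for Id2. In Gna12/Gna13 against Gna12 cells they were -0.12 to 0.35 for Foxa1, -0.06 to 0.40 for Foxa2, -0.17 to 0.05 for Cebpa, -0.42 to 0.12 for Gata6, -0.07 to 0.00 for Sox9, -0.01 to 0.15 for Klf5, -0.35 to 0.31 for Nfe2l3 and -0.35 to 0.13 for Id2. For the difference between the differences they were -0.29 to 0.08 for Nkx2-1, -0.20 to 0.38 for Cebpa, -0.39 to 0.15 for Gata6, -0.04 to 0.14 for Sox9 and -0.12 to 0.40 for Id2. Between the single knockouts Klf5 ran from -0.06 to 0.03, Foxa2 from -1.19 to -0.80, and in Gnaq/Gna11 against Gna11 cells Nfe2l3 from -2.54 to -1.74.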
